A study of Mus musculus with 24 samples.

Results

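The 10 genes described here, Aqp4, Gfap, Aldoc, S100b, Slc1a2, Slc1a3, Aldh1l1, Gja1, Sox9 and Fabp7, are widely used as markers of astrocytes. They were chosen by symbol from the 55177 genes in the files, and all 10 passed the filter on low counts in every comparison. Their RNA was measured by sequencing in 24 libraries of primary cortical neurons from mouse embryos of embryonic day 16.5, in which each embryo's cortex counted as a biological replicate per the labels' protocols. The labels name the cells as primary neurons, and which cells the RNA of these genes came from was not measured.

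The cultures were wild type at 7 days in vitro (DIV7), or at 18 days (DIV18) carried a non-targeting guide RNA (NT) or a knockout of Smarcc2, which encodes a core subunit of the BAF (SWI/SNF) nucleosome remodellers. The knockout cultures further received an empty vector, wild-type (WT) Smarcc2, or Smarcc2 with a serine replaced by glutamate (S586E) or alanine (S586A). All cultures were held overnight in 1 µM tetrodotoxin and 100 µM D-AP5, which silence sodium channels and NMDA receptors. KCl at 50 mM was then given to the depolarized cultures for 30 min, and both DIV7 states also received 0.1% DMSO. There were 2 resting and 2 depolarized libraries at DIV7, 2 and 2 of NT, 3 and 3 of knockout with vector, 2 and 3 of knockout with WT addback, 3 resting with S586E and 2 depolarized with S586A. The labels do not say how the guides and constructs were delivered or which share of the cells carried them, so the constructs are compared as whole cultures. Poly(A) RNA was sequenced at DIV7 and RNA depleted of ribosomal RNA at DIV18, so culture day, RNA selection and the guide cannot be told apart in any comparison between days.

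Astrocytes arise from radial glia, the progenitors of the embryonic cortex, after most neurons have been born, and they mature over the following weeks. Radial glia already use part of the astrocyte programme: Fabp7 (brain fatty acid-binding protein), Slc1a3 (the glutamate transporter GLAST) and Sox9, a transcription factor of gliogenesis, are common to both cell types. Slc1a2 (the glutamate transporter GLT-1), Aldoc (the brain form of the glycolytic enzyme aldolase), Aqp4 (the main water channel of the brain), Gja1 (connexin 43, which forms gap junctions), S100b (a calcium-binding protein) and Aldh1l1 (an enzyme of folate metabolism) rise as astrocytes mature. Gfap, the intermediate filament protein of astrocytes, also rises in reactive astrocytes. Slc1a2 is transcribed in some neurons as well, and Sox9 in many other progenitors.

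The promoters of 5 of the genes are shown because members of the group varied together between cultures. Each line holds the 250 bases before the RefSeq start site (build GRCm38.p6) at a gene whose upstream window overlapped exons by at most 4 bases. RefSeq entries were matched by symbol for 8 of the 10 genes. The windows lie at chr11:102897201-102897450 (minus strand) for Gfap, chr15:8710808-8711057 (minus strand) for Slc1a3, chr6:90550543-90550792 (plus strand) for Aldh1l1, chr10:56377050-56377299 (plus strand) for Gja1 and chr10:76253586-76253835 (plus strand) for S100b. Capitals mark a match, on either strand, to 1 of 6 short motifs: TGGGAA of the Notch effector RBPJ, TTCNNNGAA of STAT factors, TATAAA of the TATA box, TGANTCA of AP-1, AACAAT of SOX factors and TGACGTCA of the CRE.
Gfap: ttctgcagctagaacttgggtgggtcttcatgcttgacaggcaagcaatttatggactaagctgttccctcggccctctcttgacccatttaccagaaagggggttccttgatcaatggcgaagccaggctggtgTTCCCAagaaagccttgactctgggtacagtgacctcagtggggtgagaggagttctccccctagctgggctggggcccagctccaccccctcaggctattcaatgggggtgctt
Slc1a3: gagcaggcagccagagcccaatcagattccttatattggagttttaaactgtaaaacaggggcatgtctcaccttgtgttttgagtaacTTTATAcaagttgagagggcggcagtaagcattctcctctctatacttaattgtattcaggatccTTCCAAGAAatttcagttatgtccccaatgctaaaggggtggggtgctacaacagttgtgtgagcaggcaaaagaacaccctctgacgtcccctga
Aldh1l1: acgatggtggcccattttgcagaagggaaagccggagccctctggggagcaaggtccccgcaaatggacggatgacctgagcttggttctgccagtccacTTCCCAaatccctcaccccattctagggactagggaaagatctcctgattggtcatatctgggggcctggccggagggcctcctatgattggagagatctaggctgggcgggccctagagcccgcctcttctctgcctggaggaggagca
Gja1: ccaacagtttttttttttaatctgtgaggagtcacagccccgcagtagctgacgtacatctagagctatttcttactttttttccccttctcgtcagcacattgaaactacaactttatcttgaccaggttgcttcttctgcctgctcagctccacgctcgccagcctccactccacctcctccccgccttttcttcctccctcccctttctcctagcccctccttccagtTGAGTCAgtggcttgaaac
S100b: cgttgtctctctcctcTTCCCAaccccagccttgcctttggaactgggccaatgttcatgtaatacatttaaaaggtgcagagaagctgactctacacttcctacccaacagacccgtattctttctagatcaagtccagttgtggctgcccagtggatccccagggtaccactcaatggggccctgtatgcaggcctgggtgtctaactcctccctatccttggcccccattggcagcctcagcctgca
The letters TGGGAA occurred in the windows of Gfap, Aldh1l1, S100b, Aldoc and Fabp7, and in 21.6% of all 32851 promoters of that length. TATAAA (12.4% of all promoters) occurred in the window of Slc1a3, as did TTCNNNGAA (7.02%), which was also in the window of Aldoc. TGANTCA (6.75%) occurred at Gja1. The letters AACAAT (9.42%) and TGACGTCA (1.55%) occurred at none of the 8 genes. No motif was common to all 8, and a match describes the letters only. The window of Slc1a2, which held no match, lies before a RefSeq start 47779 bases downstream of the start of its main transcript. Aldoc had 2 windows, which overlapped exons by up to 105 and 136 bases. The windows of Gfap and Aldh1l1 lie inside the annotated gene, before the start of its main transcript, and the other 3 lie before the gene.

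In GENCODE M21 (GRCm38) the genes are all protein coding. Slc1a2 spans chr2:102658659-102790784 (plus strand), Aldoc chr11:78322968-78327781 (plus), Gfap chr11:102887336-102900912 (minus), Sox9 chr11:112782224-112787760 (plus) and Slc1a3 chr15:8634124-8710764 (minus). Aldh1l1 spans chr6:90486427-90600203, and Gja1 (chr10:56377330-56402513), Fabp7 (chr10:57784881-57788450) and S100b (chr10:76253853-76261159) share a chromosome, all on the plus strand.

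Markers of neurons were abundant in every library, and markers of microglia and vessels were low. Levels here are CPM, read counts per fixed library total, scaled by the trimmed mean of M-values (TMM) of edgeR and, where genes are compared with each other, divided by effective transcript length (CPM per kb). The 4 libraries of DIV7 held 24536056 to 30135576 estimated counts and the 20 of DIV18 held 14510199 to 24024959. The 12 neuron markers summed to between 2209 and 3118 CPM per kb at DIV18, and the 10 astrocyte genes to between 159.6 and 542. A wider list of 31 further astrocyte genes summed to between 909 and 2257 CPM per kb at DIV18. Rbfox3, the neuronal nuclear antigen NeuN, stood at 92.1 to 129 CPM per kb and Slc17a7, the vesicular glutamate transporter of excitatory neurons, at 527 to 779.5 at DIV18. The 10 microglia markers summed to at most 7.50 CPM per kb and the 10 vessel and fibroblast markers to at most 15.4. Tmem119, a defining marker of microglia, and Cldn5, one of endothelium, averaged at most 0.0373 and 0.0799 CPM per kb in any of the 10 groups.

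In resting NT cultures at DIV18 the 10 genes ranged from 2.91 to 147 CPM per kb in their means. Slc1a2 led at 147 ± 3.61 CPM per kb (SD, n = 2), followed by Aldoc at 132 ± 21.8, whose higher library (147) overlapped those of Slc1a2 (145 and 150). Gfap (54.5 ± 24.6), Fabp7 (36.3 ± 9.30) and Slc1a3 (27.5 ± 4.42 CPM per kb) came next, with libraries of neighbours overlapping. Aldh1l1 (13.6 ± 0.309), Gja1 (13.4 ± 1.41) and Sox9 (9.55 ± 2.45 CPM per kb) formed a lower band in which Aldh1l1 and Gja1 did not differ beyond their spread. Aqp4 (3.01 ± 0.670) and S100b (2.91 ± 1.82 CPM per kb) were lowest and overlapped. S100b rested on few reads, 26 to 129 estimated counts per library at DIV18.

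The order differed at DIV7. Fabp7 led by a wide margin at 254 ± 6.30 CPM per kb (SD, n = 2), while Slc1a3 (33.9 ± 0.787), Gfap (33.5 ± 7.09), Aldoc (33.3 ± 4.31) and Slc1a2 (32.5 ± 3.44 CPM per kb) could not be ordered beyond their spread. Aldh1l1 (9.73 ± 0.808) and Gja1 (9.06 ± 1.30 CPM per kb) overlapped again. Aqp4 (5.27 ± 0.115), Sox9 (3.59 ± 0.377) and S100b (0.682 ± 0.0179 CPM per kb) followed in that order without overlap.

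Most of the 10 genes were higher in the NT cultures at DIV18 than in the cultures at DIV7, and Fabp7 was lower. In the joint fit of these 8 libraries, 8 of the 10 genes were called at rest (adjusted p under 0.05, quasi-likelihood F test of edgeR with Benjamini-Hochberg adjustment), 6 higher and 2 lower. Of all genes tested, 60.6% were called in that comparison. Their median log2 fold change was 1.01, against -0.03 over all genes tested. In bulk RNA such as this, more or fewer astrocytes and more or less RNA per astrocyte cannot be told apart. In the depolarized state 8 were called as well, 7 higher and 1 lower, with a median of 0.75 against 0.00, and 61.2% of all genes were called.

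At rest the largest rises were those of S100b, Slc1a2 and Aldoc. Slc1a2 stood at 279.8 and 246 CPM at rest at DIV7 and at 1345 and 1138 CPM in resting NT cultures (log2 fold change 2.24, SE 0.110, adjusted p 2.5e-07, edgeR). Aldoc rose from 56.6 and 48.0 CPM to 208 and 259.8 CPM (2.16, SE 0.163, adjusted p 3.5e-06). Both genes had every NT library above every DIV7 library in both states, a pattern found in 39.7% of all genes at rest and 40.7% under KCl.

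S100b was at 0.805 and 0.776 CPM at DIV7 and at 5.90 and 2.25 CPM in resting NT cultures (log2 fold change 2.36, SE 0.460, adjusted p 0.00166, edgeR). Sox9 rose from 11.9 and 13.8 CPM to 33.3 and 47.5 CPM (1.65, SE 0.176, adjusted p 3.43e-05). Gja1 (1.06, adjusted p 0.000137) and Aldh1l1 (0.69, adjusted p 0.0168) rose less. Groups did not overlap for any of these 4 genes at rest, as for the same 39.7% of all genes. Under KCl the same 4 genes were called higher, with log2 fold changes of 2.86 (S100b), 0.69 (Sox9), 0.77 (Gja1) and 0.73 (Aldh1l1). The calls of Aldh1l1 were the least stable, lost at rest when any 1 of the 4 libraries was left out (adjusted p 0.0502 to 0.079) and under KCl without NT replicate 2 (0.26, adjusted p 0.0906) or DIV7 replicate 1 (0.58, adjusted p 0.103). The same 2 libraries ended the call of Sox9 under KCl (adjusted p 0.0516 and 0.0558).

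Fabp7, the radial glia and immature astrocyte gene, went the other way. It was at 133 and 138 CPM at DIV7 and at 29.0 and 19.8 CPM in resting NT cultures (log2 fold change -2.47, SE 0.336, adjusted p 0.00017 by edgeR), and under KCl at 115 and 132 against 19.3 and 48.7 CPM (-1.87, adjusted p 0.000872). The libraries of the 2 days did not overlap, and 41.9% of all genes at rest and 41.1% under KCl were lower in this way. Slc1a3, which radial glia also use, did not pass the test in either state (0.10 and 0.17, adjusted p 0.731 and 0.561). Its value under KCl depended on the NT libraries: without replicate 2 the log2 fold change was -0.39 (adjusted p 0.0296), and without replicate 1 it was 0.57 (adjusted p 0.00397).

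Aqp4 and Gfap were each called in 1 state only. Aqp4 was lower in resting NT cultures (12.4 and 7.47 CPM) than at DIV7 (18.9 and 18.8 CPM; log2 fold change -0.92, SE 0.218, adjusted p 0.00497, edgeR), while under KCl the groups overlapped (-0.00, adjusted p 0.993). With offsets for effective length the resting value was -0.49 and did not pass (adjusted p 0.162). Gfap was called higher under KCl (2.01, SE 0.516, adjusted p 0.00744) and not at rest (0.96, SE 0.502, adjusted p 0.126). Its depolarized NT libraries lay far apart, at 91.0 and 336 CPM, and without the higher one the value was 0.78 (adjusted p 0.0704). The difference between the states passed the test for neither gene (adjusted p 0.176 for Aqp4 and 0.525 for Gfap).

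**Figure D1:**
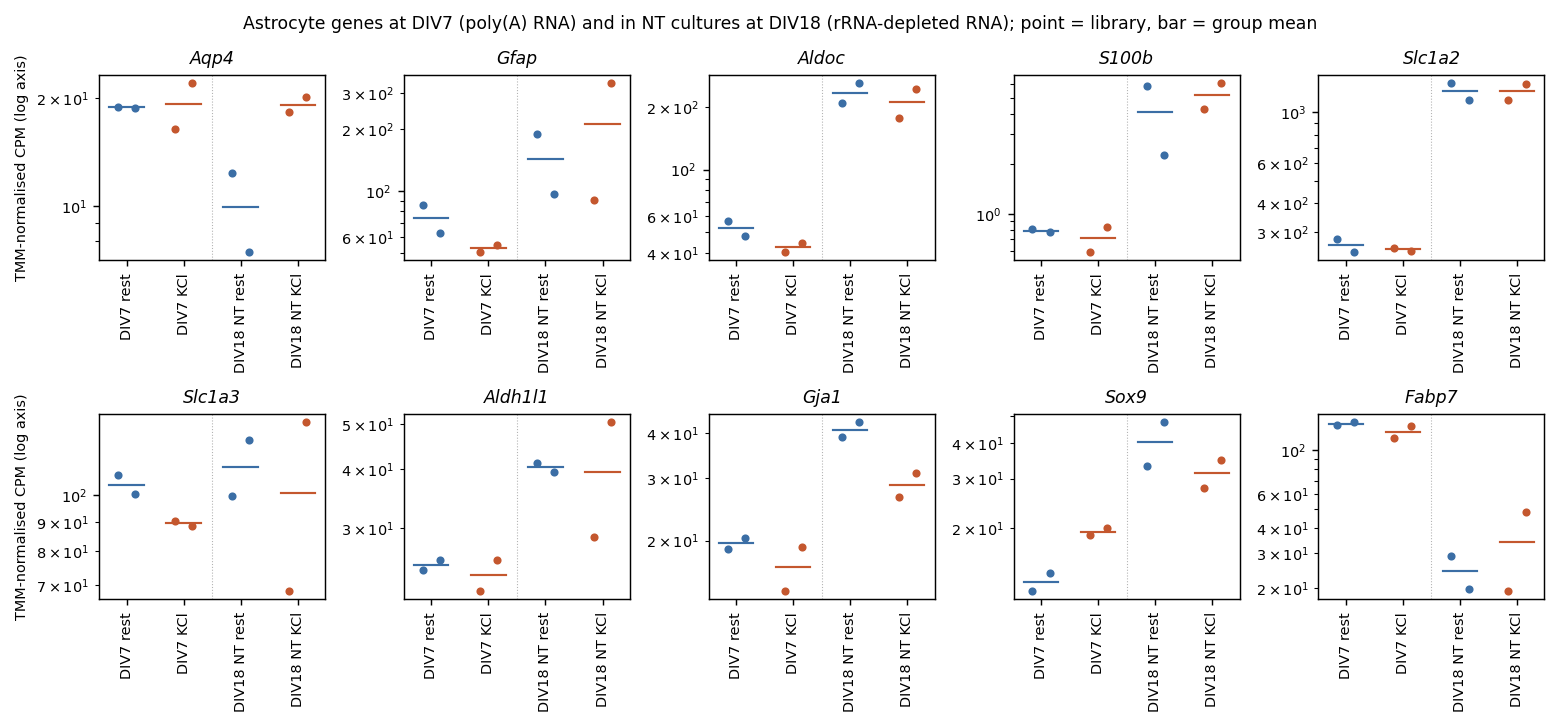
TMM-normalised CPM (log axis) of the 10 astrocyte genes in the 4 DIV7 libraries and the 4 NT libraries at DIV18, 1 panel per gene; points are libraries and bars are group means. Slc1a2, Aldoc, S100b, Sox9, Gja1 and Aldh1l1 sit higher at DIV18 and Fabp7 lower, while the 2 depolarized NT libraries are far apart for Gfap (91.0 and 336 CPM).

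Several other lists, of glial and of other cells, also had positive median log2 fold changes at DIV18 against DIV7. The lists were chosen with earlier results of these data known. Of 31 further astrocyte genes, all tested, 21 were called higher and 1 lower at rest, with a median log2 fold change of 1.40 against -0.03 over all genes, of which 60.6% were called. Examples are Gpr37l1, a receptor of mature astrocytes (5.48), and Htra1, a secreted protease (3.30), while Slc6a11, a GABA transporter, was lower (-1.72). Against the same share, 8 of 10 tested reactive astrocyte genes were called higher, among them Lcn2 (8.16), Serpina3n (3.12) and C3 (2.92). Radial glia genes were mixed, with Hes1 (3.11) and Hopx (1.13) higher and Id4 (-2.11) and Hes5 (-1.51) lower. Of 12 neuron markers 7 were called higher, among them Slc17a7 (3.77), and 3 lower (Tubb3, Stmn2 and Map2). Of the vessel and fibroblast genes 5 of 8 tested were called higher and 1 lower (median 1.06), and of the microglia genes 2 of 4 tested were called higher (median 1.59). Against 60.6% of all genes called, these counts do not set the 2 lists apart. Both lists were low, with mean sums of 4.39 (vessel) and 3.09 (microglia) CPM per kb at resting DIV7. In resting NT the sums were 7.47 and 5.23. Regulators of gliogenesis were split, with 7 of 15 called higher and 5 lower (median -0.01).

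At DIV7, depolarization for 30 min went with small shifts in 3 of the 10 genes. Gfap and Slc1a3 were called lower and Sox9 higher, and 17% of all genes tested were called. The median of the 10 log2 fold changes was -0.15, against -0.00 over all genes.

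Sox9 stood at 13.0 and 15.1 CPM at rest and at 20.6 and 21.8 CPM after KCl (log2 fold change 0.59, SE 0.100, adjusted p 0.00958, edgeR). It passed in 8 of 9 alternatives, the exception being the fit without resting replicate 1 (adjusted p 0.0597). Gfap was at 93.3 and 68.2 CPM at rest and at 55.4 and 59.5 CPM after KCl (-0.49, SE 0.134, adjusted p 0.0473). Slc1a3 was at 118 and 109.5 CPM and at 98.4 and 96.4 CPM (-0.22, SE 0.0540, adjusted p 0.0320). The libraries of the 2 states did not overlap for these 3 genes, as for 28.5% of all genes in the higher and 30.7% in the lower direction. Gfap and Slc1a3 each passed in 4 of 9 alternatives, and with single libraries left out between 0 (without resting replicate 1) and 5 (without KCl replicate 2) of the 10 genes were called.

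The other 7 genes had log2 fold changes between -0.31 (Aldoc, adjusted p 0.0594) and 0.02 (Aqp4). Of the 30 tested genes of the wider astrocyte list 0 were called by edgeR (6 at an unadjusted p under 0.05), and their median was -0.12. Of 13 radial glia genes and 15 regulators of gliogenesis 1 each was called, against 17% of all genes. Hes5, a Notch target of progenitors, fell by 3.82 (SE 0.320, adjusted p 0.000777), and Id1, a target of BMP signalling, rose by 1.44 (SE 0.198, adjusted p 0.00462). Of the reactive astrocyte genes Hspb1 (1.53) and Vim (0.21) rose.

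The targeted gene checks the labels of the knockout. Smarcc2 was at 237 to 283 CPM in the 4 NT libraries and at 47.1 to 64.1 CPM in the 6 libraries of knockout with vector. The knockout cultures differed from NT by -2.23 on the log2 scale at rest (adjusted p 7.34e-08, edgeR), with -2.42 in the depolarized state (adjusted p 1.96e-08). In the addback cultures it was at 737 to 1340 CPM, above NT. Divided by effective length, the gap between NT (59.0 to 72.7 CPM per kb) and knockout with vector (21.7 to 29.1 CPM per kb) was narrower, because the effective length of the gene was 3750 to 4017 bases in NT and 1644 to 2678 bases with vector. The level of Smarcc2 sets NT, vector and addback apart and does not tell the addback forms from each other.

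In resting cultures, knockout with vector had lower values than NT for all 10 genes, and 2 of them passed the test. The median log2 fold change was -0.70, against 0.02 over all genes. The 2 genes called were Aldoc and Slc1a2, where 5.9% of all genes were called. In 6 of the 10 genes (Aldoc, Slc1a2, Slc1a3, Aldh1l1, Gja1 and Sox9) every knockout library lay below both NT libraries, a pattern found in 18.2% of all genes.

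Aldoc was at 193 and 244 CPM in resting NT cultures and at 134, 122 and 47.3 CPM in those of knockout with vector (log2 fold change -1.11, SE 0.293, adjusted p 0.0321, edgeR). Slc1a2 was at 1249 and 1069 CPM against 931, 714 and 822 CPM (-0.50, SE 0.126, adjusted p 0.0260). Gja1 was at 36.1 and 40.3 CPM against 23.0, 21.3 and 6.05 CPM (-1.18, SE 0.428, adjusted p 0.117), and Sox9 at 31.0 and 44.6 CPM against 22.9, 21.4 and 7.26 CPM (-1.13, SE 0.385, adjusted p 0.0949). These 4 genes showed no overlap, and Aldoc, Gja1 and Sox9 each had 1 knockout library far below the other 2.

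That library, resting replicate 3 of knockout with vector, was the lowest of all 20 DIV18 libraries for 6 of the 10 genes and among the lowest 3 for 8. Mitochondrial genes held 8.13% of its counts, the highest share of the 24 libraries, against 5.48% and 4.18% in the other 2 of its group. The next highest share (7.53%) was that of WT addback under KCl, replicate 3, which was among the lowest 3 for 6 genes. The part of this share in the result was not tested. Gfap was at 169.6, 132 and 37.3 CPM across the 3 knockout libraries, Aqp4 at 11.4, 11.8 and 1.97 CPM and Fabp7 at 24.3, 22.8 and 7.58 CPM. The other 2 knockout libraries lay within the NT range for Gfap and Fabp7 and reached just above it for Aqp4. S100b and Slc1a2 were not low in replicate 3, at 2.74 and 822 CPM. Without this library the median log2 fold change was -0.47, 3 genes (Aqp4, Gfap and Fabp7) had positive values, and Aldoc alone was called (-0.77, adjusted p 0.0452).

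Leaving out either resting NT library ended every call among the 10 genes, and a fit of only these 5 libraries called none (edgeR, 4 of 10 at an unadjusted p under 0.05 in the fit of all 20). DESeq2 called the same number, 2. Without NT replicate 1 the signs of Aqp4, Gfap and S100b turned positive (0.26, 0.30 and 0.21).

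Under KCl the same comparison gave lower values for all 10 genes, with no overlap between knockout and NT in any of them. The median log2 fold change was -1.15, against 0.02 over all genes. Libraries without overlap and lower in the knockout were found in 18.5% of all genes, and 2.67% of all genes were called. Of the 10 genes, Slc1a2, Aqp4 and S100b were called, and all 10 had an unadjusted p under 0.05.

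Slc1a2 had the smallest fold change and the smallest spread. It was at 1057 and 1234 CPM in NT and at 635, 640.0 and 739.8 CPM in knockout with vector (log2 fold change -0.77, SE 0.126, adjusted p 0.00378 by edgeR), and it passed in 10 of 11 alternatives, the exception being the fit without NT replicate 2 (adjusted p 0.100). S100b was at 3.98 and 5.66 CPM against 1.33, 1.54 and 2.41 CPM (-1.46, SE 0.329, adjusted p 0.0257), a call that was lost without NT replicate 2 (adjusted p 0.333), knockout replicate 1 (0.105) or knockout replicate 2 (0.0896).

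Aqp4 (chr18:15389496-15410982 in GRCm38, minus strand) was at 17.0 and 18.6 CPM in NT and at 0.461, 2.25 and 2.54 CPM in knockout with vector (log2 fold change -3.38, SE 0.762, adjusted p 0.0257, edgeR). It had the widest spread of the 10 genes at DIV18, with a biological coefficient of variation of 53.8% against 10.2% for Slc1a2 and a median of 16.6% over all genes tested. The call was lost when any 1 of the 5 libraries was left out (adjusted p 0.0606 to 0.182) and with offsets for effective length (-2.42, adjusted p 0.111).

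Gfap was at 84.7 and 311 CPM in NT and at 38.9, 65.3 and 49.7 CPM in knockout with vector (log2 fold change -1.95, SE 0.565, adjusted p 0.0736, edgeR). Fabp7 was at 17.9 and 45.0 CPM against 7.07, 10.2 and 12.5 CPM (-1.67, SE 0.460, adjusted p 0.0597). Aldh1l1 (-1.22), Gja1 (-1.07), Slc1a3 (-0.92), Aldoc (-0.91) and Sox9 (-0.89) had adjusted p values between 0.109 and 0.260. In each of these 7 genes the lowest NT library stood above the highest knockout library.

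The count of calls under KCl moved with the libraries and the fit. Depolarized NT replicate 2 was the highest of all 20 libraries for 5 of the 10 genes and among the highest 3 for all 10. Without it none of the 10 was called, all 10 values stayed negative and the median was -0.75. Without NT replicate 1, 4 were called (Slc1a2, S100b, Gfap and Fabp7). A fit of only the 5 libraries compared called 9 of the 10, all but Slc1a3, at a background of 3.86%, and DESeq2 called 4.

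Further astrocyte genes were lower in the knockout as well. Of the 31 genes of the wider list, 7 were called lower and none higher at rest (edgeR), with a median of -0.82, and 29 of 31 had negative values. The shares of all genes called, 5.9% at rest and 2.67% under KCl, stand beside these and the following list counts. Those called included Gpr37l1 (-1.99), Ntsr2, a neurotensin receptor of astrocytes (-1.81), Apoe, the main lipid carrier of the brain (-1.60), Atp1b2, a sodium pump subunit (-0.99), Htra1 (-1.41) and Fgfr3, a growth factor receptor (-1.24). Under KCl 6 were called lower and none higher, with a median of -1.15: Tril (-1.68), Htra1 (-1.52), Ntsr2 (-1.46), the metallothioneins Mt2 (-1.08) and Mt1 (-0.95), and Sparcl1, a secreted synaptogenic protein (-0.49). Of 10 tested reactive genes, Lcn2 was called lower at rest (-1.49) and 0 under KCl (edgeR, 5 at an unadjusted p under 0.05). The call of Lcn2 was lost without resting knockout replicate 2 or 3. These counts moved with the libraries that stood apart. Without knockout replicate 3 at rest, 3 of the wider list were called (Atp1b2, Ntsr2 and Htra1), 26 of 31 values were negative and the median was -0.40. Without NT replicate 2, 0 were called in either state, with 30 of 31 negative values and medians of -0.71 at rest and -0.74 under KCl. Leaving out 1 knockout library under KCl left 1 or 2 calls, and without NT replicate 1 there were 4 at rest and 8 under KCl.

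Markers of other cell types moved beside these genes, and their part in the result was not tested. Genes of the oligodendrocyte lineage were called lower in 5 of 10 tested at rest and 3 of 10 under KCl, with medians of -1.78 and -1.38. Pdgfra, the receptor that marks oligodendrocyte precursors, was at 3.96 to 5.03 CPM per kb in resting NT libraries and at 0.00999 to 0.219 in knockout with vector. Sox10, a factor of that lineage, was at 0 in all 3 resting knockout libraries and at 1.09 to 3.24 CPM per kb in NT. Of 9 proliferation genes 3 were called lower at rest (Mki67, Cdk1 and Top2a, from -3.73 to -3.15) and 0 under KCl (edgeR, 2 at an unadjusted p under 0.05). The median was -1.30 at rest and -1.15 under KCl. Without NT replicate 2, 3 of 11 oligodendrocyte genes were called at rest and 0 under KCl, and 0 of the proliferation genes in either state. Leaving out any 1 knockout library under KCl also ended the 3 oligodendrocyte calls, and at rest it left 1 or 2 proliferation calls. The summed level of the vessel and fibroblast markers lay the other way at rest, at 10.97 to 13.9 CPM per kb in knockout with vector and 6.17 to 8.78 in NT. Single genes were split, as 4 of 8 tested had negative values. Their median log2 fold change was 0.17, with 1 of 8 called (Rgs5, a pericyte gene, 1.65). The microglia markers were at 3.15 to 5.71 and 4.37 to 6.10 CPM per kb, with 1 of 4 called lower (Csf1r, -1.31). The call of Csf1r was lost without either NT library or without knockout replicate 1 or 2, and that of Rgs5 without NT replicate 2.

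Regulators of gliogenesis were lower in part. Of 15 such genes 3 were called lower at rest and 2 under KCl. Nfia, a factor that starts astrocyte formation, fell by 0.75 at rest (SE 0.182, adjusted p 0.0197, edgeR) and by 0.71 under KCl. Its call under KCl was lost without knockout replicate 1 or 3. Zbtb20 fell by 0.45 and 0.53, and Notch1, the receptor of the pathway that keeps progenitors, fell by 1.51 at rest. Without knockout replicate 3, Zbtb20 alone was called at rest, and without NT replicate 2 none of the 15 was called in either state. Of 13 radial glia genes, Id4 was lower at rest (-1.38), and Ptprz1 (-1.30) and Emx2 (-1.41) under KCl. The call of Id4 was lost without NT replicate 2, and both calls under KCl were lost whichever of the 5 libraries was left out. Of 12 neuron markers 0 were called at rest (edgeR, 1 at an unadjusted p under 0.05), where their median was -0.05, and 3 were lower under KCl: Nefl (-0.92), Nefm (-0.71) and Snap25 (-0.36), of which 0 were called without NT replicate 2.

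**Figure D2:**
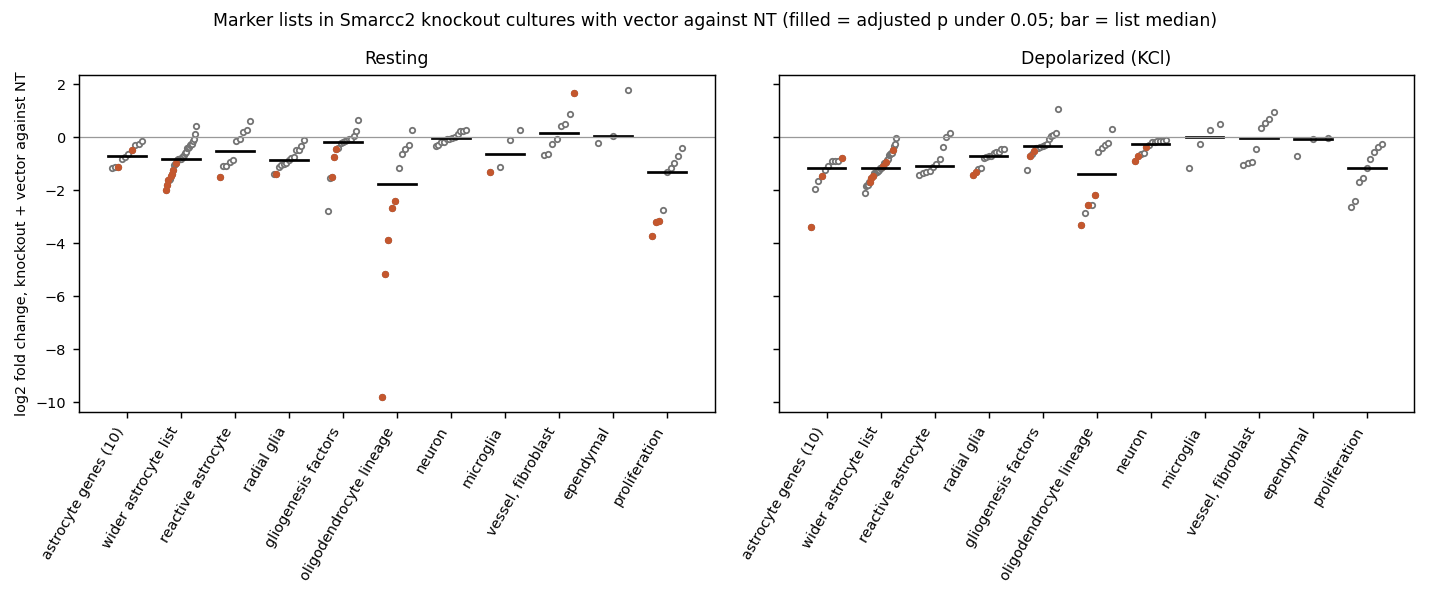
Log2 fold change of knockout with vector against NT for each tested gene of 11 lists, at rest (left) and under KCl (right); points are genes, filled where called, and bars are list medians. The lists of the 10 genes, further astrocyte genes, radial glia, oligodendrocyte and proliferation lists have medians from -1.78 to -0.70 in both states, and the neuron list from -0.26 to -0.05.

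Cultures with WT Smarcc2 added back had none of the 10 genes past the test of edgeR, against either vector or NT. These comparisons share the vector or NT libraries with those above. At rest, WT addback against vector gave a median log2 fold change of 0.37 with 6 of 10 positive values and no call (edgeR, 1 at an unadjusted p under 0.05, DESeq2 0), where 0.0143% of all genes were called. Without vector replicate 3 that median was -0.02 and 6 of 10 values were negative. Under KCl the median was 0.38 with all 10 positive and no call (edgeR, 1 at an unadjusted p under 0.05, DESeq2 0), where 0.00955% of all genes were called.

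Aqp4 had the largest difference, at 5.92, 22.1 and 3.22 CPM with WT addback under KCl against 0.461, 2.25 and 2.54 CPM with vector (log2 fold change 2.61, SE 0.726, adjusted p 0.999, edgeR). All 3 addback libraries lay above the 3 vector libraries, as for 5.02% of all genes, with replicate 2 well above the others. Replicate 2 also led in Gfap, at 38.5, 124 and 37.9 CPM, and without it 6 of the 10 differences had the opposite sign and the median was -0.03. At rest Aldoc was at 159 and 166 CPM with WT addback, above all 3 vector libraries (0.68, SE 0.295, adjusted p 0.406), as for 13.7% of all genes.

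Against NT, WT addback had lower values in 9 of 10 genes at rest (median -0.45) and in all 10 under KCl (median -0.75). None was called in either state by edgeR (2 and 4 at an unadjusted p under 0.05), where 0.105% and 0.201% of all genes were called, and DESeq2 called 1 in each state. Slc1a2 came closest, at 801 and 665 CPM at rest (log2 fold change -0.66, SE 0.140, adjusted p 0.0933) and at 669, 783 and 852 CPM under KCl (-0.58, SE 0.126, adjusted p 0.0661). All its addback libraries lay below all NT libraries, as for 20.9% of all genes at rest and 14.3% under KCl. Without depolarized NT replicate 2 the median under KCl was -0.41, and without WT addback replicate 2 it was -1.20.

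The S586E and S586A forms were each sequenced in 1 state. None of the 10 genes was called between S586E and WT addback at rest (edgeR, 1 at an unadjusted p under 0.05, DESeq2 0) or between S586A and WT addback under KCl (edgeR, 0 at an unadjusted p under 0.05, DESeq2 0), and of all genes 0% were called in both. Against vector, S586E gave a median of 0.24 and S586A one of 0.48 with no call (edgeR, 0 and 1 at an unadjusted p under 0.05, DESeq2 0 in both), where 0.0191% and 0.00955% of all genes were called. Without vector replicate 3 the median of S586E was -0.08 with 6 of 10 negative values, and without S586A replicate 1 that of S586A was 0.22. A miss of the threshold does not show that the constructs act alike, since the standard errors of these differences ran from 0.114 for Slc1a2 to 0.774 for Aqp4.

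Single genes show where the constructs lay. With S586E, Gja1 was at 14.6, 15.3 and 13.4 CPM, below both WT addback libraries (27.3 and 24.1 CPM; log2 fold change -0.83, SE 0.435, adjusted p 0.438, edgeR). Slc1a2 with S586E, at 994, 871 and 993 CPM, lay above both WT addback libraries (0.38, SE 0.128, adjusted p 0.232). Under KCl, Aqp4 with S586A was at 14.3 and 9.03 CPM, above all 3 vector libraries (2.78, SE 0.774, adjusted p 0.164) and within the range of WT addback. Of the 10 genes, 5 were higher with S586A than with vector without overlap, against 15.9% of all genes.

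Against NT, S586E had 7 of 10 negative values (median -0.39) and no call (edgeR, 4 at an unadjusted p under 0.05, DESeq2 0), where 2.78% of all genes were called. Gja1 (-1.40, adjusted p 0.0846), Sox9 (-1.10, adjusted p 0.131) and Aldoc (-0.89, adjusted p 0.107) had the largest differences and no overlap (19.01% of all genes were lower without overlap), while Gfap (0.17) and Fabp7 (0.19) overlapped NT. S586A had 10 of 10 negative values (median -0.66), and Slc1a2, at 766 and 695 CPM against 1057 and 1234 CPM, was called (-0.65, SE 0.140, adjusted p 0.0484), where 0.43% of all genes were called. This call passed in 3 of 10 alternatives (adjusted p up to 0.504) and in none that left out a library. Without NT replicate 2 the median of S586A was -0.34 and 8 of 10 values were negative.

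**Figure D3:**
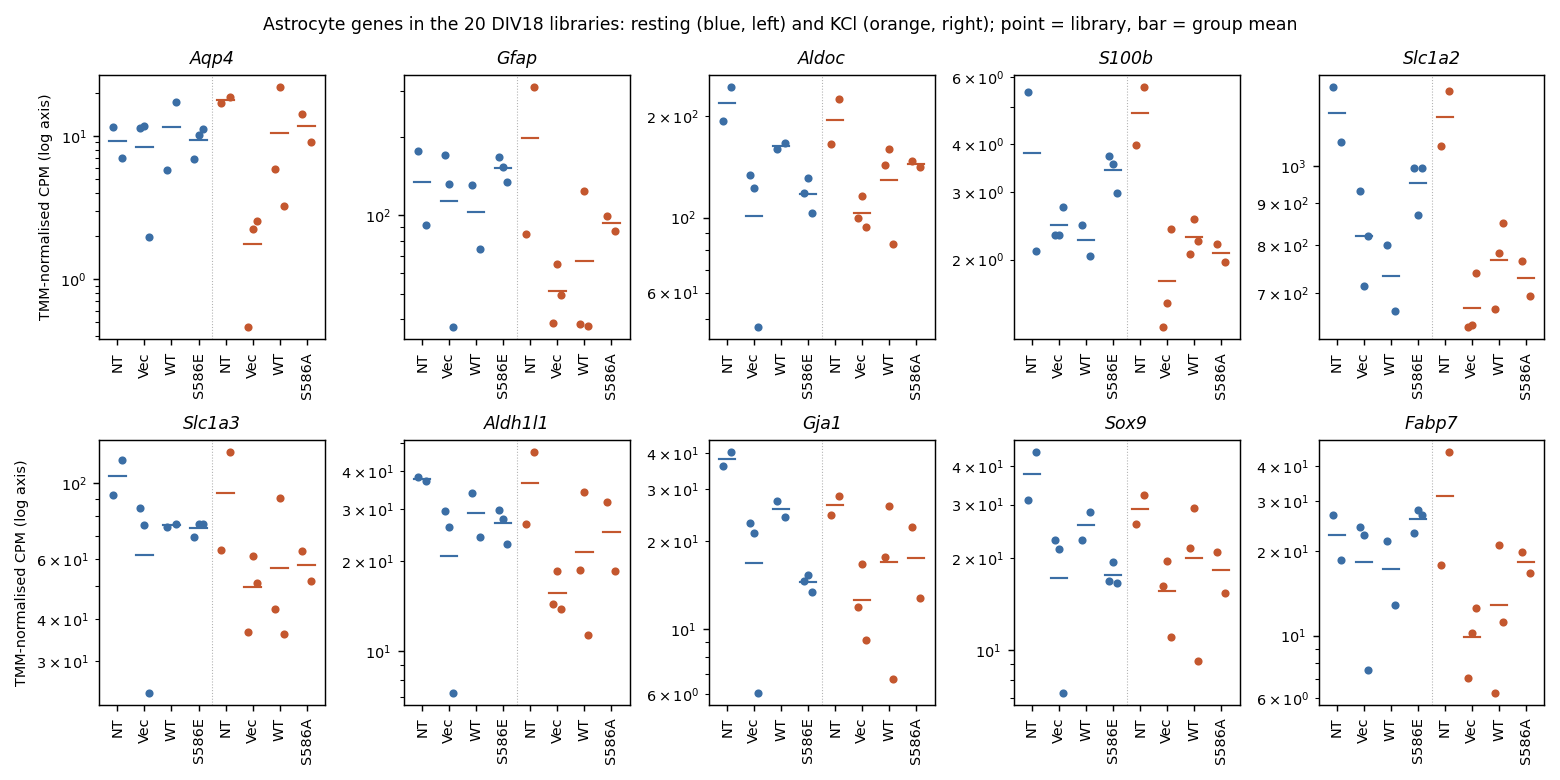
TMM-normalised CPM (log axis) of the 10 astrocyte genes in the 20 DIV18 libraries, 1 panel per gene, resting groups at left in blue and depolarized groups at right in orange; points are libraries and bars are group means. The NT bars stand above those of knockout with vector in every panel, and single libraries stand apart, such as resting replicate 3 with vector (Aldoc 47.3 CPM) and depolarized NT replicate 2 (Gfap 311 CPM).

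The response of these genes to KCl at DIV18 did not pass the test in NT, vector or WT addback, the 3 groups sequenced in both states. In NT no gene was called (edgeR, 0 of 10 at an unadjusted p under 0.05, DESeq2 0), where 0.00955% of all genes were called. In knockout with vector none was called (edgeR, 3 at an unadjusted p under 0.05, DESeq2 0), where 0.0716% of all genes were. In WT addback none was called (edgeR, 0 at an unadjusted p under 0.05, DESeq2 0), where 0.043% of all genes were.

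In knockout with vector, Aqp4 was at 11.4, 11.8 and 1.97 CPM at rest and at 0.461, 2.25 and 2.54 CPM under KCl (log2 fold change -2.31, SE 0.736, adjusted p 0.307 by edgeR), and the groups overlapped through resting replicate 3. In NT it was at 11.5 and 7.02 CPM at rest and at 17.0 and 18.6 CPM under KCl (0.94, SE 0.732, adjusted p 1). The difference between those 2 responses was -3.25 (SE 1.04, adjusted p 0.472), and none of the 10 differences was called (edgeR, 2 at an unadjusted p under 0.05, DESeq2 0), as for 0% of all genes. Between the responses of WT addback and vector 0 of the 10 were called (edgeR, 1 at an unadjusted p under 0.05, DESeq2 0, and 0% of all genes).

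The response of NT at DIV18 was also set against that at DIV7. None of the 10 was called by edgeR (2 at an unadjusted p under 0.05), where 2.34% of all genes were called, and DESeq2 called 1. Sox9 had a difference of -0.96 (SE 0.245, adjusted p 0.0858), with a rise after KCl at DIV7 and 31.0 and 44.6 CPM at rest against 25.9 and 32.2 CPM under KCl in NT at DIV18. Aqp4 had a difference of 0.92 (adjusted p 0.176) and Gfap one of 1.06 (adjusted p 0.525).

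Across the 20 DIV18 libraries the 10 genes varied together to different degrees. The 45 pairs had a median Pearson correlation of 0.66 on log2(CPM + 0.5), from 0.25 to 0.97, and 15 pairs were above 0.8. These values describe libraries that share groups, and they carry no test. Gja1 and Sox9 (0.97), Gfap and Fabp7 (0.96), Aldoc and Sox9 (0.94) and Slc1a3 and Aldh1l1 (0.94) were closest. S100b and Slc1a2 were close to each other (0.85) and less so to the rest, with correlations to the mean of the other 9 genes of 0.14 and 0.12 once group means were removed, while Aldh1l1 (0.94), Gfap (0.94) and Slc1a3 (0.93) kept theirs.

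**Figure D4:**
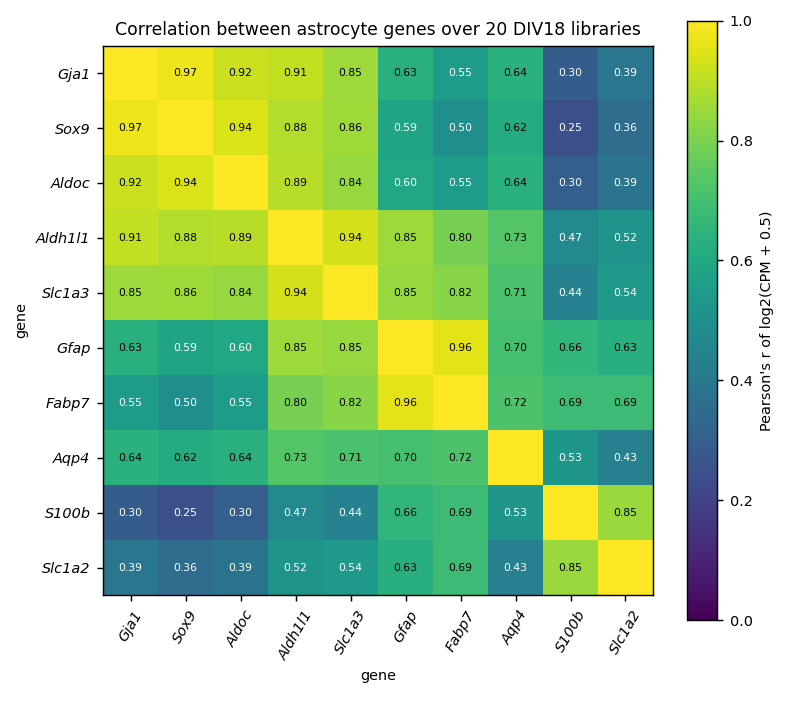
Pearson correlation of log2(CPM + 0.5) over the 20 DIV18 libraries for each pair of astrocyte genes, with the value in each cell. Gja1, Sox9, Aldoc, Aldh1l1 and Slc1a3 lie between 0.84 and 0.97 with each other, Gfap and Fabp7 pair at 0.96, and S100b and Slc1a2 pair at 0.85 with values down to 0.25 against the others.

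Genes outside the 10 followed the same pattern closely. Among 11227 genes with a mean of at least 5 CPM, the 10 with the highest correlation to the mean standardised level of the astrocyte genes over the 20 libraries were Fgfrl1 (0.976), Mlc1 (0.972), Cnn3 (0.972), Lrig1 (0.968), Qk (0.962), Slc4a4 (0.961), Zcchc24 (0.961), Ptprz1 (0.957), Dio2 (0.957) and Igfbp2 (0.951), against a median of 0.05 over the genes searched. Of these, 4 stood in the lists used here. All 10 were picked by their likeness to the astrocyte genes over the same 20 libraries. A lower level with vector is therefore built into the choice and adds no support. Mlc1, a membrane protein of astrocyte endfeet, was at 33.7 to 40.4 CPM in resting NT cultures and at 7.64 to 31.1 CPM in resting knockout cultures with vector. Dio2, the enzyme that activates thyroid hormone in astrocytes, was at 19.1 to 46.3 CPM in depolarized NT cultures and at 7.89 to 12.2 CPM with vector. At rest it was at 30.3 to 31.7 CPM in NT and at 6.50 to 28.7 CPM with vector.

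The gene totals came mostly from 1 transcript each. Gfap-201 held 92.6% to 99.5% of the TPM of Gfap, Fabp7-201 at least 94.2% and Gja1-201 a median of 77.3% at DIV7 and 98.3% at DIV18. For Slc1a2 the main transcript held 75.2% at DIV7 and 69.9% at DIV18 (medians). Aqp4 was least settled, as Aqp4-201 held a median of 76.2% at DIV7 and 60.7% at DIV18, from 0% to 100% across the DIV18 libraries, where the gene had 9.29 to 484 estimated counts.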

How the data were processed

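RNA sequencing of 24 libraries was used. Per the file headers, the tables as deposited give each transcript's length, effective length, estimated count and TPM (length-scaled abundance with a fixed sum per library). The submitters' processing notes name FastQC, cutadapt and kallisto; versions, genome build and annotation are not given in the sources used here. RNA was poly(A)-selected at DIV7 and depleted of ribosomal RNA at DIV18, per the labels' protocols. TPM values deposited by the authors were used only for transcript shares, because 7SL and 7SK RNA (Rn7s1, Rn7s2 and Rn7sk) took up to 23.9%, 23.9% and 6.63% of TPM at DIV18. Of 142552 transcripts, 141429 (99.2%) matched GENCODE M21 (GRCm38), and the rest held at most 0.467% of counts.

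Gene totals are sums of estimated counts, rounded to whole numbers. They were tested with edgeR 4.0.16 (R 4.3.3; two-sided quasi-likelihood F test) with TMM, filterByExpr and Benjamini-Hochberg adjustment, in separate fits of DIV7 (4 libraries, 19822 genes), DIV18 (20 libraries, 20940 genes) and both days (8 libraries, 21072 genes), after tests on simulated counts. Fits across 21 contrasts were repeated with DESeq2 1.42.0, median-of-ratios size factors, no low-count filter, length offsets, a replicate block and each library left out, and for 19 of them with only the groups compared. The counts of the marker lists without single libraries were added after the data were seen. CPM per kb divides TMM-normalised CPM by the effective length of the gene.

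The 10 genes and all lists were chosen with earlier results of these data known. Named besides the 10 are called genes of those lists (1 is not reported here), the 10 genes most correlated with the mean of the 10, Smarcc2, and markers of other cell types (Rbfox3, Slc17a7, Tmem119, Cldn5), the last chosen after their values were seen. Same-numbered libraries deviated together (every correlation of deviations over 0.1) in the 3 comparisons with 3 pairs: vector depolarized against resting (0.153, 0.104 and 0.296), WT addback against vector under KCl (0.151, 0.166 and 0.308) and S586E against vector (0.352, 0.143 and 0.344). In WT addback against NT, which has fewer pairs, the values were 0.158 at rest and 0.187 and 0.192 under KCl. In a group of 2 libraries the deviations from the mean mirror each other. At rest both pairs therefore give the same value by construction, and under KCl both values rest on mirrored NT deviations. They cannot show whether the pairs agree. Each p-value measures the spread between libraries, each from the cortex of 1 embryo per the labels' protocols.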

Additional observations from a re-analysis of the deposited data

How the results depend on the processing

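The values here are counts of the 10 astrocyte genes called, unless stated. The share of all genes called beside them ran from 0.282% to 32.8% across comparisons without the low-count filter. With only the groups compared it ran from 0% to 63.9%. It was 0.00478% to 53.6% with DESeq2, 0% to 59.4% with the replicate block, 0% to 57.4% with length offsets and 0% to 61.2% with median-of-ratios size factors. With 1 library left out it ran from 0% to 53.1%. These are ranges over all comparisons of a setting, so a single count cannot be set against the share in its own comparison. The counts below describe the settings and are not read as results about the 10 genes. Without the low-count filter the counts were 2 (KCl in NT), 5 (KCl with vector), 3 (KCl with WT addback), 6 and 10 (vector against NT, resting and depolarized), 4 and 2 (WT addback against vector), 6 (S586E against WT addback), 1 (S586A against WT addback), 2 and 5 (S586E and S586A against vector), 5 and 9 (WT addback against NT), 5 and 8 (S586E and S586A against NT), and 3, 1 and 4 for the differences in response (vector against NT, WT addback against vector, NT at DIV18 against DIV7). With only the groups compared they were 0 and 9 (vector against NT), 1 (S586E against WT addback), 5 (S586E against NT) and 0 (S586A against NT). Length offsets gave 1 at DIV7 and 0 for S586A against NT, as did median-of-ratios size factors for the latter (0). DESeq2 gave 1 at DIV7, 1 and 1 for WT addback against NT and 1 for the response of NT at DIV18 against DIV7. The replicate block gave 5 at DIV7, 1 and 1 for WT addback against NT and 1 for that difference in response. The block changed no count by over 1.5 times in the 3 comparisons with 3 pairs. In WT addback against NT it moved the count from 0 to 1 in each state. Whether the numbers pair the libraries outside the 3 comparisons with 3 pairs is not known. The cause of these moves was not tested. Leaving out 1 library gave 0 to 5 (KCl at DIV7), 0 to 2 and 0 to 4 (vector against NT), 0 to 0 (S586A against NT), 7 to 7 and 6 to 9 (NT at DIV18 against DIV7, resting and depolarized), 0 to 2 (response of NT at DIV18 against DIV7) and 0 in every other comparison. Slc1a3 between days under KCl was 0.57 without NT replicate 1 and turned to -0.39 without NT replicate 2. The summed level against resting NT turned with the unit: 0.93 in log2 TPM and -1.42 in log2 CPM for resting DIV7, 0.74 and -1.56 for depolarized DIV7, and -0.06 and 0.00945 for depolarized NT. In CPM per kb, from separate fits of each day, the mean sums were 415 (resting) and 372 (depolarized) at DIV7. In NT they were 440 and 438. Slc1a2 alone held 1159 of the mean sum of 1766 CPM in resting NT. Depth limits the precision of S100b (26 to 129 estimated counts per DIV18 library) and Aqp4 (9.29 to 484). Of 2400 values of single genes under these alternatives, 161 changed sign while passing the test in neither fit.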
